A study of Mus musculus with 16 samples.

Results

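The genes described here are 9 chemokine genes expressed in type 1 conventional dendritic cells (cDC1s) of mouse spleen: Ccl3, Ccl4, Ccl5, Ccl9, Ccl17, Ccl22, Cxcl9, Cxcl10 and Cxcl16. They were taken by gene symbol from a table of raw counts, where they make up 9 of 24421 genes. All 9 passed the filter on low counts, which left 11978 genes for testing. Bulk RNA was sequenced in 16 libraries of cDC1s, 4 in each of 4 groups: immature and mature cells of Xbp1fl mice, and immature and mature cells of Xbp1flIre1fl mice. Xbp1fl mice carry loxP-flanked alleles of Xbp1, which encodes a regulator made in response to stress of the endoplasmic reticulum, and Xbp1flIre1fl mice carry such alleles of both Xbp1 and Ire1, the stress sensor that activates it. In neither genotype were the genes deleted, so all 4 groups have the label WT, and all came from the C57BL6 strain at steady state with no further agent. The cells were sorted from spleen by flow cytometry into lysis buffer, and the labels give neither the gates, nor the age of the mice, nor whether each library is from a mouse of its own. The p-values therefore reflect only how far these libraries spread, and that spread may be technical.

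Chemokines are small secreted proteins that attract leukocytes along a gradient through receptors on the responding cell. CC chemokines such as Ccl5 and Ccl22 and CXC chemokines such as Cxcl9 differ in the spacing of their first cysteines. Cxcl16 is unusual in being made as a membrane protein from which the chemokine part is shed. In the spleen, cDC1s take up dead cells and present their antigens to CD8 T cells, and on maturation they gain the receptor Ccr7 and move into T cell areas, where the chemokines they release bear on which T cells they meet.

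Total counts per library ranged from 13948232 to 17000763, and 3 counts, used as the floor, corresponded to 0.161 to 0.232 CPM, which covers counting error only. CPM are read counts set to a common library size, here with TMM factors, which ran from 0.886 to 1 for mature cells and from 1.06 to 1.12 for immature cells. The cell type labels were checked against marker genes. The summed level of 11 cDC1 markers ran from 6203 to 9541 CPM for mature cells and from 10390 to 11660 CPM for immature cells, with Irf8 the most abundant and none at 0. Of these, 2 were called higher and 7 lower in mature cells. Those of 10 genes of mature dendritic cells were 12790 to 28140 and 576 to 926 CPM, and all 10 were called higher in mature cells. Ccr7, the most abundant of them, was lowest among the mature libraries in Xbp1flIre1fl replicates 4 and 2 (4988 and 6574 CPM, against 8001 to 13420 CPM in the other 6). Among the immature libraries Ccr7 was highest in Xbp1fl replicate 3 (320 CPM, against 107 to 241 CPM in the other 7).

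The contrast of mature with immature cells, taken as the mean of both genotypes, called 6 of the 9 chemokines higher, none lower, and left 3 without a call (edgeR quasi-likelihood test, Benjamini-Hochberg adjusted p under 0.05). Over all genes 33.4% were called higher and 34.2% lower. The median log2 fold change of the 9 was 1.59, against -0.01 over all genes. Ccl5, Ccl22, Cxcl16 and Ccl9 did not overlap between the 8 mature and the 8 immature libraries, all with mature cells higher, where 18% of all genes showed this. The 5 with a change of over 2-fold were Ccl5, Ccl22, Cxcl16, Ccl17 and Ccl9, and 12.3% of all genes were called higher by that much. In bulk samples, a smaller number of cells that express a gene and a lower level per cell cannot be told apart. How the calls over all genes divide depends on scaling. TMM gave 3995 higher among 8095 calls, upper quartile normalization 3213 among 8450, and plain library sizes 2716 among 8807, and with the latter pair the median over all genes moved to -0.13 and -0.23. Under both of these scalings Ccl5, Ccl22, Cxcl16, Ccl17 and Ccl9 were called higher, Cxcl10 lost its call and Cxcl9 changed sign.

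**Figure D1:**
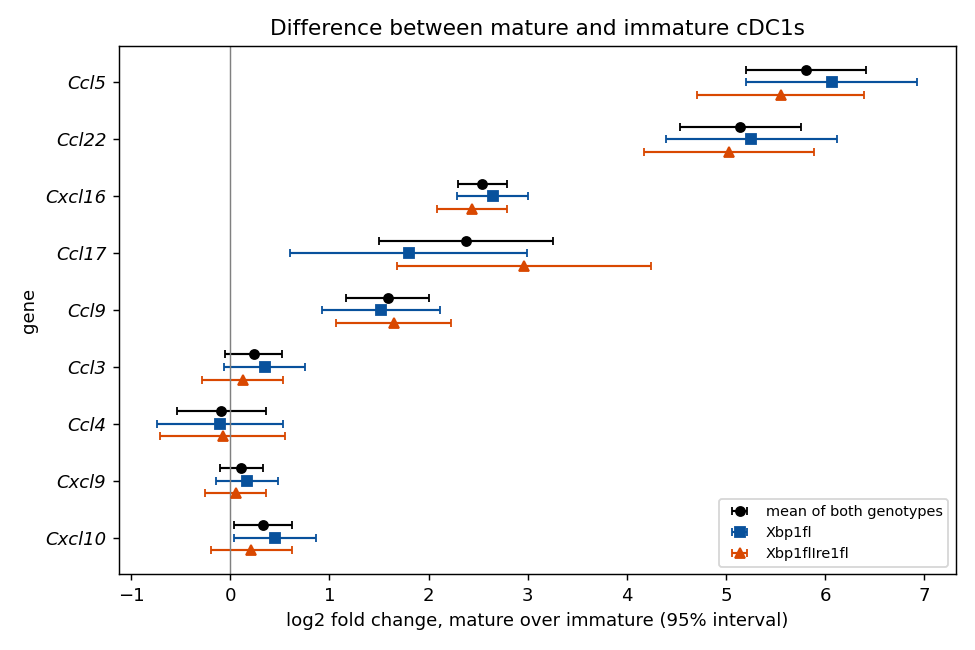
Log2 fold change of mature over immature cDC1s (x axis) for the 9 chemokine genes (y axis), as the mean of both genotypes (black circles) and within Xbp1fl (blue squares) and Xbp1flIre1fl (orange triangles), with 95% intervals from the edgeR fit to 16 libraries. Ccl5 (5.81) and Ccl22 (5.14) lie far to the right, while the intervals of Ccl3, Ccl4 and Cxcl9 include 0.

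The sequences before the starts of 4 of these genes are printed to set promoters of chemokines that rose in mature cells (Ccl22, Ccl9) beside those of the CXCR3 ligands, whose change was small or not called (Cxcl9, Cxcl10). They are from RefSeq on the build GRCm38.p6, read 5′ to 3′ on the gene's strand and ending just before the start of transcription: Cxcl9 at chr5:92328080-92328329 (minus strand), Cxcl10 at chr5:92348890-92349139 (minus strand), Ccl9 at chr11:83578637-83578886 (minus strand) and Ccl22 at chr8:94745434-94745589 (plus strand). The run for Ccl22 is shorter, since it ends before the GENCODE start of the gene and the rest of the RefSeq window lies in the first GENCODE exon. Capitals mark exact matches, on either strand, to the letters searched.
Cxcl9: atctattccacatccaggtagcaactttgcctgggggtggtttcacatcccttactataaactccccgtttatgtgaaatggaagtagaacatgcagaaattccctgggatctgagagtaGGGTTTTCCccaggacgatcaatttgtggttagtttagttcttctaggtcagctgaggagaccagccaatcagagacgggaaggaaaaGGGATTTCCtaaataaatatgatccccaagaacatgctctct
Cxcl10: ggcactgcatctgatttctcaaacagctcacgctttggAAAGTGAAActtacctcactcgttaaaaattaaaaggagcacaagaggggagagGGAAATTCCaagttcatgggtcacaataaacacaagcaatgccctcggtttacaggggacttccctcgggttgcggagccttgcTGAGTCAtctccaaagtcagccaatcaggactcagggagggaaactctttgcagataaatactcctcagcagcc
Ccl22: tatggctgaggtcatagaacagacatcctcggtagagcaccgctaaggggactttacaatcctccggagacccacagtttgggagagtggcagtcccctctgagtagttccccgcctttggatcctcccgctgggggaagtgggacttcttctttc
Ccl9: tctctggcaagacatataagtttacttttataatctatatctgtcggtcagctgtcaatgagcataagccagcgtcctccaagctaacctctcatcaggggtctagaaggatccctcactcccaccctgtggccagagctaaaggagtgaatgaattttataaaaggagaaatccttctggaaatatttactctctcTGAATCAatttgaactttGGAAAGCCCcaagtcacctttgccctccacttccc
Of the 9 genes, 6 had an entry in the promoter table, which holds 32851 windows in all. Ccl4, Ccl5 and Cxcl16 had none, so Ccl5 and Cxcl16, which rose in mature cells, are not covered. The letters searched in the 250 bases before the start were GGNNTTTCC (a kappa B motif, bound by NF-kappa B factors), AAANNGAAA (an interferon response element, ISRE), GGAANNGAA (EICE, bound by Irf4 or Irf8 with an Ets factor), TTCNNNGAA (GAS, bound by Stat factors) and TGANTCA (AP-1). They were found in 4.93%, 9.37%, 6.99%, 7.02% and 6.75% of all windows of that length. Cxcl9 held 2 kappa B matches, at -130 to -122 and -42 to -34 from the start. Cxcl10 held a kappa B match at -158 to -150, an ISRE match at -212 to -204 and an AP-1 match at -74 to -68. Ccl9 held a kappa B match at -35 to -27 and an AP-1 match at -53 to -47. Ccl17, not printed, held a GAS match at -99 to -91. None of the 5 sets of letters was found before Ccl22 or Ccl3. A match is a description of the letters and not a site, and its absence covers these windows only. EICE and ISRE letters can overlap in principle, and no 2 matches overlapped in these windows.

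Ccl22 and Ccl17 encode the ligands of CCR4, a receptor of regulatory T cells and type 2 helper T cells, and they are neighbours on chromosome 8 with Cx3cl1 between them. Ccl22 (94745590 to 94751699, plus strand, 4 exons) was at 792, 659, 836 and 787 CPM in mature Xbp1fl replicates 1 to 4 and at 20.3, 13.5, 33.9 and 12.8 CPM in the immature ones. In Xbp1flIre1fl it was at 841, 512, 931 and 381 CPM when mature and 27.9, 17.9, 24.7 and 11.1 CPM when immature. All mature libraries lay far above all immature ones, and the 2 lowest mature values were in Xbp1flIre1fl replicates 4 and 2, the libraries lowest in Ccr7. The highest immature value was in Xbp1fl replicate 3, the immature library highest in Ccr7. Ccl22 rose 35.3-fold, or from 20.3 ± 8.08 to 717 ± 187 CPM (SD, n = 8 each), a log2 fold change of 5.14 ± 0.28 (SE; edgeR adjusted p = 1.22e-09). Within Xbp1fl the log2 fold change was 5.26 ± 0.40 and within Xbp1flIre1fl 5.03 ± 0.40.

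Ccl17 (94810453 to 94812036, plus strand, 3 exons), 58.753 kb from Ccl22, was a gene of few reads in these cells. Its counts were 17, 39, 24 and 4 in mature and 2, 11, 13 and 3 in immature Xbp1fl replicates 1 to 4. In Xbp1flIre1fl they were 32, 19, 29 and 28 in mature and 6, 2, 4 and 4 in immature replicates. Mature libraries were higher with the exception of Xbp1fl replicate 4, whose 4 counts lie within the range of the immature libraries. Ccl17 rose 5.21-fold, or from 0.325 ± 0.243 to 1.66 ± 0.713 CPM (SD, n = 8 each), a log2 fold change of 2.38 ± 0.42 (SE; edgeR adjusted p = 6.63e-05). With 45 counts over the 8 immature libraries, the size of this rise is uncertain. Per kilobase of exon, Ccl22 stood at 308 ± 80.3 CPM in mature cells and Ccl17 at 3.22 ± 1.39 CPM (SD, n = 8). Within Xbp1fl the log2 fold change of Ccl17 was 1.80 ± 0.57 (edgeR adjusted p = 0.0118), and the call was lost without Xbp1fl mature replicate 2 (1.37, adjusted p = 0.0628). Cx3cl1, a membrane-bound chemokine for Cx3cr1 that lies 20.309 kb beyond Ccl22 and 28.025 kb before Ccl17, rose too, from 2.90 ± 0.528 to 43.8 ± 11.2 CPM (log2 fold change 3.92 ± 0.17, edgeR adjusted p = 2.02e-11).

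Ccl5, Ccl3, Ccl4 and Ccl9 form a cluster of CC chemokine genes on chromosome 11, and they differed in what they did there. Ccl5 (83525778 to 83530518, minus strand, 3 exons) encodes a chemokine that attracts T cells and monocytes. It was at 577, 642, 750 and 655 CPM in mature Xbp1fl replicates and at 7.94, 13.8, 11.1 and 6.35 CPM in immature Xbp1fl replicates 1 to 4. The Xbp1flIre1fl replicates held 763, 398, 722 and 325 CPM when mature and 8.01, 20.4, 11.4 and 7.14 CPM when immature. All 8 mature libraries lay above all 8 immature ones. Replicate 2 was the highest of the immature libraries in each genotype, and in mature Xbp1flIre1fl cells replicates 2 and 4 were again the lowest. Ccl5 rose 56.0-fold, the mean level going from 10.8 ± 4.64 to 604 ± 163 CPM (SD, n = 8 each). This was the largest fold change among the 9, with a log2 fold change of 5.81 ± 0.28 (SE; edgeR adjusted p = 2.98e-10). T cells and NK cells also express Ccl5. Of 10 T cell markers 9 were tested and 5 were called higher (33.4% of all genes), with Cd4 the most abundant. Summed levels were 64.5 to 107 CPM for mature and 29.7 to 48.4 CPM for immature cells. Most of the rise in the sum was Cd4 (18.0 to 37.1 CPM) and Il7r (1.95 to 18.8 CPM). Cd3e rose from 2.92 to 5.64 CPM, while Cd3d and Cd5 were not called. Of 9 NK cell markers none was higher, 2 were lower and 7 were not called (33.4% higher and 34.2% lower over all genes). Their sums were 73.5 to 130 CPM for mature and 131 to 192 CPM for immature cells. Most of each sum was Klrk1, at 57.7 ± 7.76 CPM (mature) and 116 ± 9.89 CPM (immature), so the sums say little of the other markers. No tested marker of these lists was at 0 in all libraries, and the part of these cells in the level of Ccl5 was not tested.

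Ccl9 (83572919 to 83578636, minus strand, 5 exons), a ligand of CCR1, lies 42.4 kb from Ccl5. It was at 17.4, 13.8, 16.8 and 14.7 CPM in mature Xbp1fl replicates and at 5.50, 7.98, 4.57 and 3.77 CPM in immature Xbp1fl replicates 1 to 4. For Xbp1flIre1fl the values were 24.9, 14.9, 26.8 and 16.9 CPM when mature and 5.40, 7.51, 3.68 and 9.88 CPM when immature. The stages did not overlap, with the highest immature library, Xbp1flIre1fl replicate 4, below the lowest mature one, Xbp1fl replicate 2. Ccl9 rose 3.00-fold, or from 6.04 ± 2.21 to 18.3 ± 4.88 CPM (SD, n = 8 each; log2 fold change 1.59 ± 0.20, SE; edgeR adjusted p = 2.4e-06). Ccl6, its neighbour at 9.245 kb and another CCR1 ligand, was at 34.8 ± 3.50 CPM (mature) and 34.5 ± 3.34 CPM (immature) (log2 fold change 0.01 ± 0.07, edgeR adjusted p = 0.894), but was called lower with library sizes only (-0.21, adjusted p = 0.0121).

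Ccl3 and Ccl4, which lie 13.228 kb apart, encode macrophage inflammatory proteins, chemokines that attract monocytes and T cells. Ccl4 (83662584 to 83664683, plus strand, 3 exons) was at 258, 287, 233 and 186 CPM in mature Xbp1fl replicates and at 262, 254, 277 and 245 CPM in immature Xbp1fl replicates 1 to 4. Xbp1flIre1fl cells showed 238, 387, 183 and 134 CPM when mature and 276, 342, 243 and 134 CPM when immature. The stages overlapped fully, and the highest and the lowest library of each stage came from the same replicate numbers of Xbp1flIre1fl, 2 and 4. Ccl4 did not pass the test (238 ± 77.1 against 254 ± 57.9 CPM, SD, n = 8 each; log2 fold change -0.09, 95% interval -0.54 to 0.36, edgeR adjusted p = 0.712). Ccl3 (83647844 to 83649355, minus strand, 3 exons) was at 55.5, 60.1, 38.8 and 33.2 CPM in mature Xbp1fl replicates and at 33.1, 45.1, 33.0 and 36.3 CPM in immature Xbp1fl replicates. In Xbp1flIre1fl it was at 43.2, 57.4, 43.4 and 32.6 CPM when mature and 38.1, 48.9, 39.3 and 35.7 CPM when immature. Replicate 2 was the highest library in each of the 4 groups. Without regard to replicate numbers Ccl3 did not pass the test (45.5 ± 10.9 against 38.7 ± 5.66 CPM; log2 fold change 0.24 ± 0.14, edgeR adjusted p = 0.134).

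**Figure D2:**
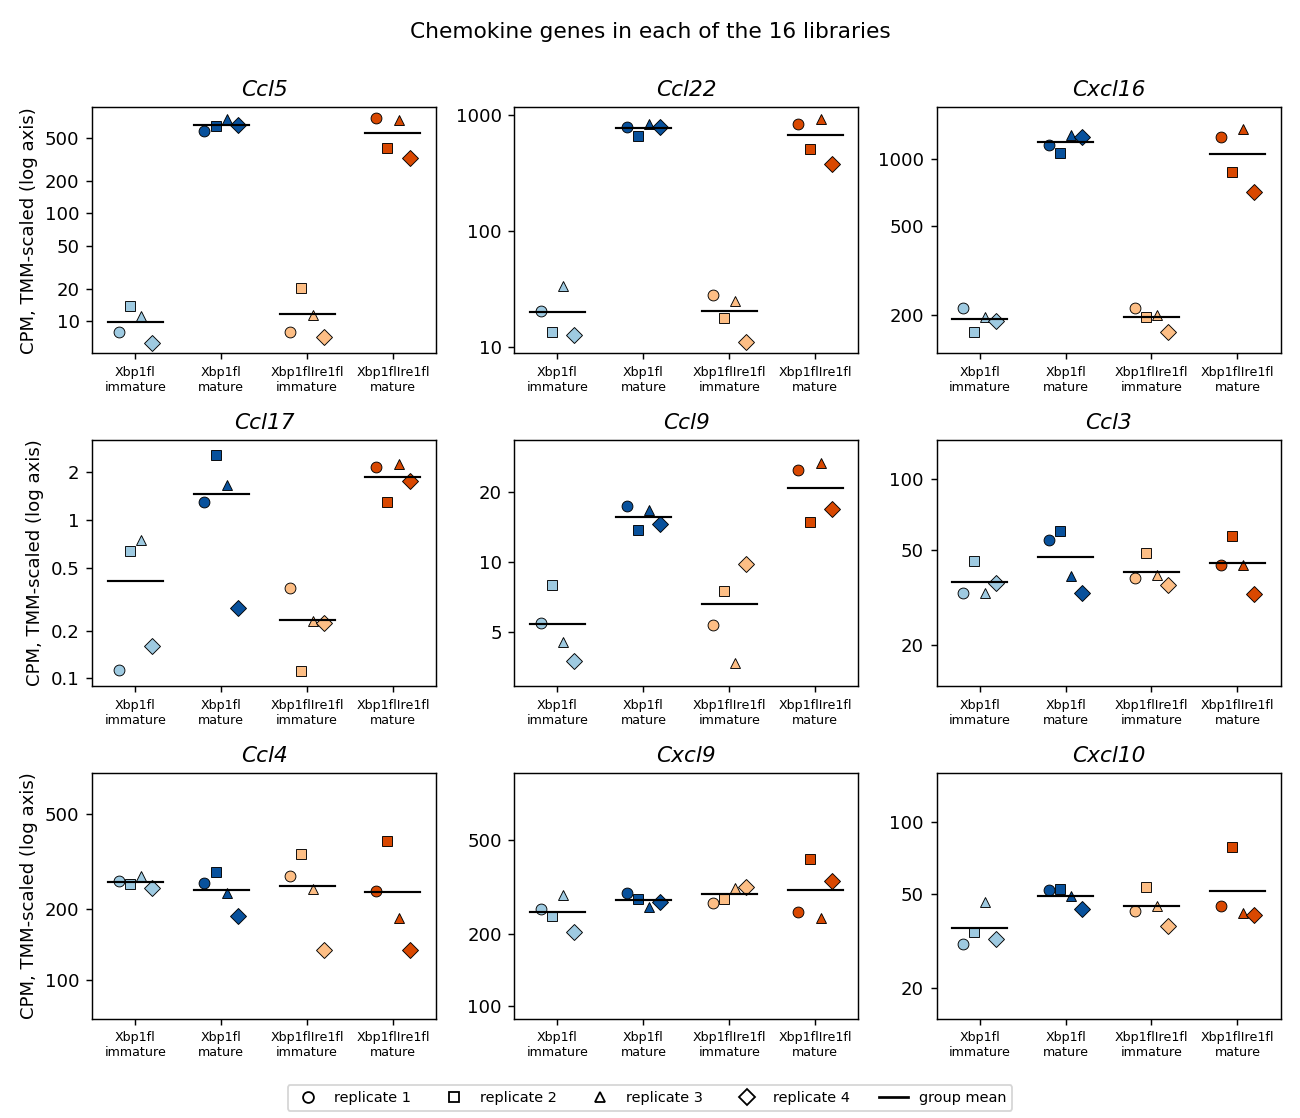
Level of each chemokine gene in the 16 libraries, as TMM-scaled CPM on a log axis, by group (x axis) with the replicate number as the symbol and the group mean as a line. For Ccl5, Ccl22, Cxcl16 and Ccl9 all mature libraries lie above all immature ones, while for Ccl4, Ccl3, Cxcl9 and Cxcl10 the stages overlap.

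The labels number the replicates of each group from 1 to 4. Within a genotype immature and mature libraries of the same number deviated together in 8 of 8 pairs. Their correlations were 0.29 to 0.604 over 7881 genes with a mean of at least 10 CPM. Same-numbered libraries of different genotypes correlated at -0.221 to 0.382. Between same-numbered libraries of a genotype the mature level of Ccl3 was the higher in 6 of 8 pairs, with ratios of 0.914 to 1.68. That of Ccl4 was the higher in 3 of 8, with ratios of 0.751 to 1.13. With the replicate number as a block within each genotype, an alternative not planned beforehand, Ccl3 was called higher (log2 fold change 0.22, edgeR adjusted p = 0.0291, and 0.32 within Xbp1fl, adjusted p = 0.027). Ccl4 was not called with the block. For the genes with large changes each of the 8 pairs pointed the same way. The ratios were 19.5 to 103 for Ccl5, 24.7 to 61.7 for Ccl22, 4.27 to 6.87 for Cxcl16, 1.71 to 7.27 for Ccl9 and 1.72 to 11.6 for Ccl17. Those of Ccl17 rest on few reads, with 2 to 13 counts per immature library, so their size is uncertain. Its lowest ratio, in Xbp1fl replicate 4, sets 4 counts against 3.

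**Figure D3:**
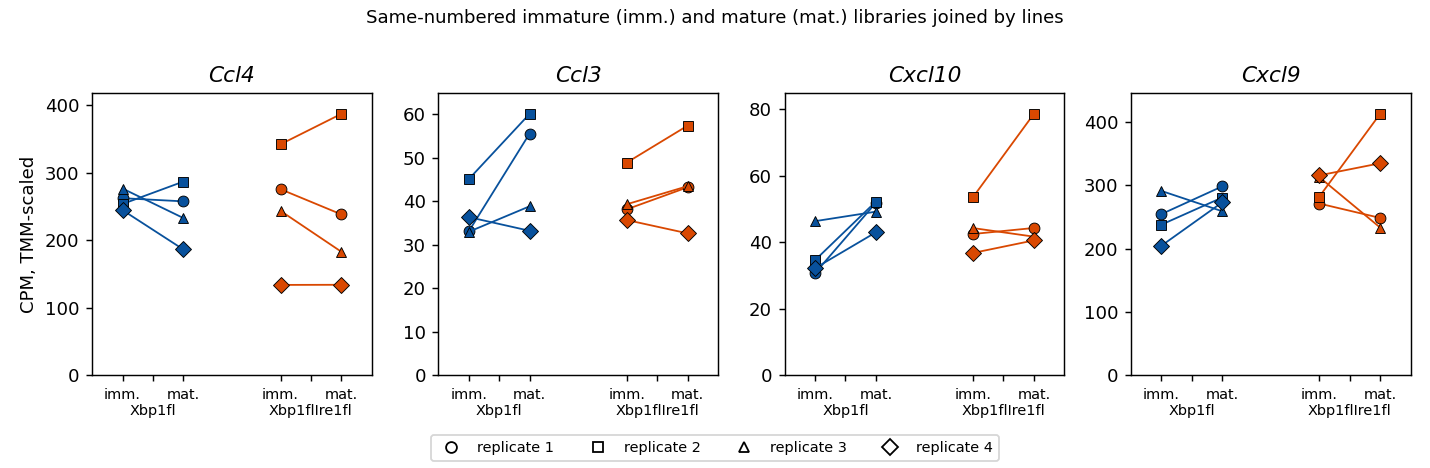
TMM-scaled CPM of Ccl4, Ccl3, Cxcl10 and Cxcl9 (y axes) in immature and mature libraries, with lines joining libraries of the same genotype and replicate number (blue, Xbp1fl, and orange, Xbp1flIre1fl, with the symbol giving the number). The order of the Xbp1flIre1fl libraries for Ccl4 is the same in both stages, from 134 CPM in replicate 4 to 342 and 387 CPM in replicate 2.

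Cxcl9 and Cxcl10 encode ligands of CXCR3 that are induced by interferon gamma and attract activated CD8 T cells, type 1 helper T cells and NK cells. They lie 18.558 kb apart on chromosome 5. Cxcl9 (92321347 to 92328079, minus strand, 4 exons) was at 298, 281, 259 and 273 CPM in mature Xbp1fl replicates and at 254, 238, 291 and 204 CPM in immature Xbp1fl replicates 1 to 4. The Xbp1flIre1fl replicates held 248, 413, 233 and 335 CPM when mature and 271, 282, 313 and 316 CPM when immature. The stages overlapped, and the highest mature values were in Xbp1flIre1fl replicates 2 and 4, the libraries lowest in Ccr7, Ccl5, Ccl22 and Cxcl16. Cxcl9 did not pass the test (293 ± 57.9 against 271 ± 38.0 CPM, SD, n = 8 each; log2 fold change 0.11, 95% interval -0.10 to 0.33, edgeR adjusted p = 0.343), and the interval holds changes of at most 1.26-fold. The sign of its change depended on the scaling, with -0.01 under upper quartile normalization and -0.11 on plain library sizes. Without Xbp1flIre1fl mature replicates 2 and 4 it was called lower within Xbp1flIre1fl (-0.30, edgeR adjusted p = 0.0224), an alternative chosen after the data were seen.

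Cxcl10 (92346638 to 92348889, minus strand) was at 51.9, 52.2, 49.2 and 43.0 CPM in mature Xbp1fl replicates and at 30.7, 34.6, 46.3 and 32.2 CPM in immature Xbp1fl replicates 1 to 4. For Xbp1flIre1fl the values were 44.3, 78.6, 41.7 and 40.5 CPM when mature and 42.5, 53.6, 44.2 and 36.8 CPM when immature. Mature libraries were above their same-numbered immature library in 7 of 8 pairs, but the stages overlapped, and mature Xbp1flIre1fl replicate 2 stood well above the rest. Cxcl10 was called higher by a small amount, 1.26-fold (log2 fold change 0.33 ± 0.14, SE; edgeR adjusted p = 0.0424). This call was lost in 10 of the 16 fits that each left out 1 library (adjusted p of 0.0162 to 0.0854), with either other scaling (0.21, adjusted p = 0.18, and 0.11, adjusted p = 0.472) and without mature Xbp1flIre1fl replicates 2 and 4 together (0.20, adjusted p = 0.0861). Within Xbp1fl it was not called without a block (0.45, adjusted p = 0.0595) and was called with the replicate block within each genotype (0.46, adjusted p = 0.00363). The third gene of this locus, Cxcl11, another CXCR3 ligand 10.654 kb from Cxcl10, was at 0.706 ± 0.400 CPM (mature) and 0.584 ± 0.340 CPM (immature) and was not called. Macrophages also make these ligands. Of 12 macrophage markers 8 were called higher (33.4% of all genes), with Vcam1 the most abundant and none at 0. Their sums were 538 to 1107 CPM for mature and 146 to 586 CPM for immature cells. Most of the rise in the sum was Vcam1 (80.5 to 348 CPM) and Hmox1 (79.2 to 171.5 CPM). Mertk and Cd5l were among the 4 not called. The part of macrophages in the levels of Cxcl9 and Cxcl10 was not tested.

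Cxcl16 (chromosome 11, 70453983 to 70459984, minus strand, 6 exons) encodes the ligand of CXCR6, a receptor of activated and resident T cells and NKT cells. It was at 1159, 1071, 1289 and 1259 CPM in mature Xbp1fl replicates and at 214, 168, 194 and 186 CPM in immature Xbp1fl replicates 1 to 4. Xbp1flIre1fl cells showed 1262, 875, 1373 and 714 CPM when mature and 215, 196, 200 and 167 CPM when immature. The mature libraries were all above the immature ones, which lay close together, and replicates 2 and 4 of mature Xbp1flIre1fl cells were the lowest of the mature. Cxcl16 rose 5.83-fold, or from 193 ± 18.3 to 1125 ± 227 CPM (SD, n = 8 each), a log2 fold change of 2.54 ± 0.12 (SE; edgeR adjusted p = 3.74e-11), the smallest p among the 9. Its exons overlap those of Zmynd15 on the opposite strand by 552 bases. Zmynd15 was itself at 145 ± 36.1 CPM (mature) and 1.81 ± 0.940 CPM (immature), and without known strandedness reads of the shared bases cannot be told apart. Cxcl10 shares 133 exon bases with Art3 on the opposite strand, which was at 0.434 ± 0.241 and 0.585 ± 0.174 CPM.

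Set in order of level per kilobase of exon, immature cells were led by Ccl4 (385 ± 87.8 CPM per kb, SD, n = 8). Cxcl9 (89.9 ± 12.6), Cxcl16 (63.8 ± 6.06) and Ccl3 (50.5 ± 7.39) came next, then Cxcl10 (17.8 ± 3.50), Ccl5 (11.2 ± 4.84) and Ccl22 (8.72 ± 3.47), and last Ccl9 (1.98 ± 0.726) and Ccl17 (0.631 ± 0.472). In the immature cells Ccl4 did not overlap with the gene below it, nor did Ccl3 or Ccl22, while the other neighbours in this order overlapped between libraries. The merged exons of Cxcl10 form 1 block of 2252 bases over the whole gene, so any introns count in its length. Its level per kb may be too low, and whether it overlaps with its neighbours is uncertain in either stage. In mature cells Ccl5 was first (629 ± 170 CPM per kb), followed by Cxcl16 (372.5 ± 75.2), Ccl4 (361 ± 117) and Ccl22 (308 ± 80.3). These 4 overlapped with their neighbours, and all 4 lay above Cxcl9 (97.0 ± 19.2), Ccl3 (59.4 ± 14.2), Cxcl10 (22.3 ± 5.49), Ccl9 (5.995 ± 1.60) and Ccl17 (3.22 ± 1.39). Ccl5 thus moved from the sixth place to the first, and Ccl22 from the seventh to the fourth. The 9 genes together had 1980 to 3555 CPM in mature and 717 to 968 CPM in immature libraries, not per length. In the immature libraries Ccl5 made up 0.874% to 2.11% of that sum and Ccl22 1.54% to 3.81%. In the mature libraries they made up 14.5% to 22.01% and 18.7% to 26.2%.

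**Figure D4:**
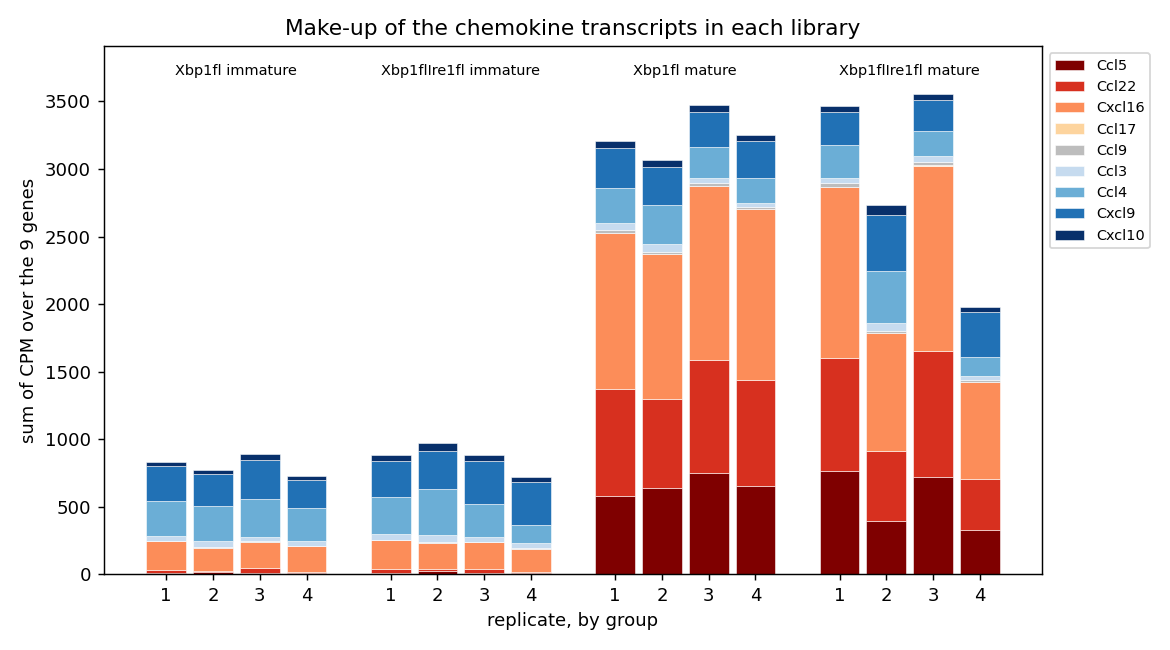
Sum of TMM-scaled CPM over the 9 chemokine genes in each library (y axis), split by gene (colours) and arranged by group and replicate (x axis), not scaled by gene length. The sums are 717 to 968 CPM in immature and 1980 to 3555 CPM in mature libraries, and Ccl5, Ccl22 and Cxcl16 fill most of each mature bar.

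As a share of their mature level, immature cells held 1.78% of Ccl5, 2.83% of Ccl22, 17.1% of Cxcl16, 19.6% of Ccl17 and 33.1% of Ccl9. For Ccr7 and Fscn1, which mark mature dendritic cells, the shares were 1.88% and 0.495%. How much of the immature signal came from mature cells in the immature gate was not tested. B cell markers were also higher in mature libraries, in 10 of 10 tested, with sums of 315 to 1073 CPM against 80.2 to 143 CPM, Ms4a1 the most abundant and none at 0. Among mature libraries the sum of B cell markers was lowest in Xbp1fl replicate 4 (315 CPM) and Xbp1flIre1fl replicate 2 (318 CPM), which held 787 and 512 CPM of Ccl22. Of 9 tested markers of type 2 dendritic cells (cDC2s) 5 were higher, with sums of 558 to 923 against 237 to 282 CPM, led by Tmem176a. Most of the rise in this sum was Tmem176a alone (13.5 to 323 CPM), while Clec12a, Itgam and Cd209a were not called. Of 6 plasma cell markers 4 were higher and 1 lower (185 to 693 against 180 to 353 CPM, led by Jchain). The part of these cells in the chemokine levels was not tested. Sums of monocyte (2223 to 2891 against 2340 to 2917 CPM, led by Nr4a1), plasmacytoid dendritic cell (116 to 212 against 122 to 142 CPM, led by Bst2) and stromal or endothelial markers (39.8 to 62.3 against 55.1 to 70.1 CPM, led by Pecam1) overlapped between the stages, as did those of neutrophils (0.275 to 47.4 against 5.37 to 56.6 CPM, led by Mpo) and erythroid cells (4.05 to 16.3 against 3.45 to 24.8 CPM, led by Alas2, with Hba-a1 and Hbb-bt at 0). Among 8 tested monocyte markers 1 was called higher and 2 lower, among 7 of plasmacytoid dendritic cells 1 and 1. Among 6 stromal or endothelial markers 1 and 1 were called, among 6 of neutrophils 0 and 1, and among 3 erythroid ones none. Over all genes 33.4% were higher and 34.2% lower. Nr4a1 (2260 CPM mature, 2248 CPM immature) made up most of the monocyte sum. Ccr2, named after its values were seen, fell from 90.5 ± 23.1 to 18.9 ± 5.09 CPM.

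Within each genotype on its own, 5 of the 9 chemokines were called higher and none lower, Ccl5, Ccl22, Cxcl16, Ccl17 and Ccl9 in both. Over all genes 28.4% were called higher and 28.3% lower within Xbp1fl, and 27.4% higher and 26.1% lower within Xbp1flIre1fl. In Xbp1fl 4 of the 9 were higher without overlap (26.8% of all genes) and in Xbp1flIre1fl 5 of the 9 (22.6% of all genes), Ccl17 being the one that differed. The difference between these changes, the interaction, called none of the 9 and none of 11978 genes (0%; edgeR quasi-likelihood test), with an unadjusted p under 0.05 for 329 genes and for none of the 9. Its intervals were wide for the genes with large changes: the log2 difference was -0.51 for Ccl5 (95% interval -1.56 to 0.53), -0.22 for Ccl22 (-1.28 to 0.83) and -0.21 for Cxcl16 (-0.68 to 0.27). DESeq2 and limma-voom called none of the 9 either.

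Xbp1flIre1fl was also compared with Xbp1fl within each stage, where both genotypes have the label WT. None of the 9 was called in immature or in mature cells, where 0.134% and 0.142% of all genes were called (16 and 17 genes; edgeR quasi-likelihood test), and none of the 9 had an unadjusted p under 0.05. The count over all genes in mature cells changed when Xbp1flIre1fl mature replicates 2 and 4 were left out. It was 30 without replicate 2, 15 without replicate 4 and 152 without both. In the fit without both, the count in immature cells was 27. None of the 9 was called in any of these fits. In mature cells Ccl5 was at 552 ± 223 CPM in Xbp1flIre1fl and 656 ± 71.5 CPM in Xbp1fl (SD, n = 4 each; log2 difference -0.25, 95% interval -0.92 to 0.42). Ccl22 was at 666 ± 262 and 768 ± 76.4 CPM (-0.21, -0.92 to 0.50), and Ccl9 at 20.9 ± 5.87 and 15.7 ± 1.73 CPM (0.41, -0.14 to 0.97). In immature cells Cxcl9 was at 295 ± 22.2 and 247 ± 36.1 CPM (0.26, -0.05 to 0.57). The spread between libraries was wider in mature Xbp1flIre1fl than in mature Xbp1fl cells for several genes: the SD was 40.4% of the mean against 10.9% for Ccl5, and 39.3% against 9.95% for Ccl22.

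That spread did not run the same way in every gene. Relative to their group mean, mature Xbp1flIre1fl replicates 1 and 3 were higher in Ccl5 (log2 deviations of 0.56 and 0.48), Ccl22 (0.43 and 0.57), Cxcl16 (0.31 and 0.43) and Ccl9 (0.30 and 0.40). Replicates 2 and 4 were lower in Ccl5 (-0.38 and -0.67), Ccl22 (-0.29 and -0.71), Cxcl16 (-0.22 and -0.51) and Ccl9 (-0.44 and -0.26). These were also the libraries with the higher and the lower Ccr7. The genes without a large change in maturation followed another order, in which replicate 2 was the highest in Ccl4 (0.83), Cxcl10 (0.67), Cxcl9 (0.46) and Ccl3 (0.41), and replicate 4 was the lowest in Ccl4 (-0.70), Ccl3 (-0.41) and Cxcl10 (-0.28). Without replicates 2 and 4 of this group, Ccl5, Ccl22 and Cxcl16 in mature cells differed between the genotypes by 0.18, 0.21 and 0.14 on the log2 scale, in place of -0.25, -0.21 and -0.18, and none was called.

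**Figure D5:**
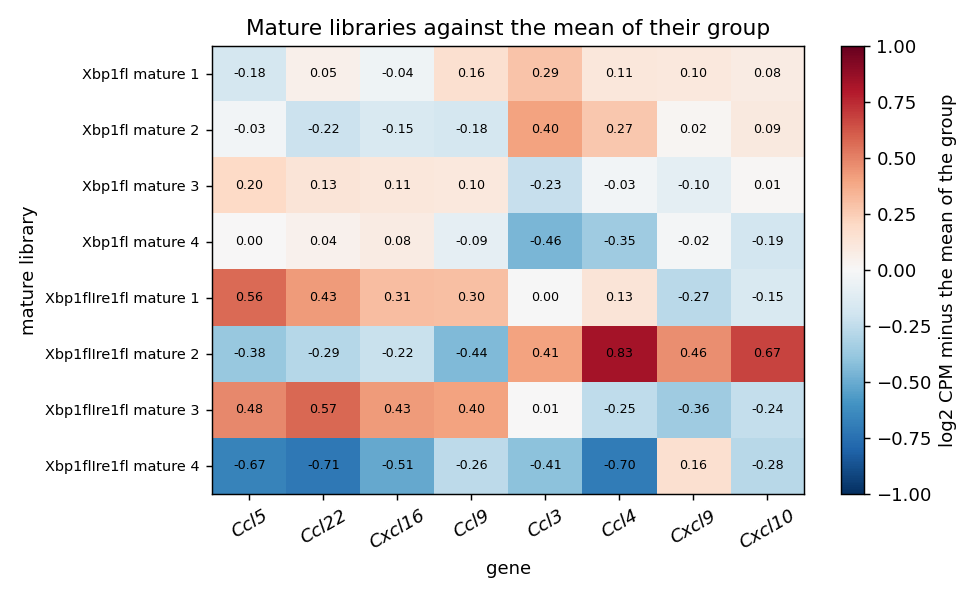
Log2 CPM of 8 chemokine genes (x axis) in each of the 8 mature libraries (y axis) minus the mean of the library's group, as colour and number; Ccl17 is left out for its low counts. In Xbp1flIre1fl replicates 2 and 4 Ccl5, Ccl22, Cxcl16 and Ccl9 are all below the mean, while Ccl4 is at 0.83 in replicate 2 and -0.70 in replicate 4.

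Of 32 other chemokine genes, 13 passed the filter, 5 were called higher in mature cells and none lower (33.4% and 34.2% of all genes), with a median log2 fold change of 0.32. Ccl19, a ligand of Ccr7 itself, rose from 0.296 ± 0.115 to 9.46 ± 4.67 CPM (SD, n = 8 each; log2 fold change 4.92 ± 0.30, edgeR adjusted p = 2.17e-10). Cx3cl1 is given above with its neighbours. Cxcl1 and Cxcl2, which attract neutrophils, rose from 0.0933 ± 0.114 to 1.31 ± 0.467 CPM and from 2.39 ± 0.876 to 4.18 ± 1.78 CPM, and Ccl24, a CCR3 ligand, from 0.266 ± 0.145 to 0.942 ± 0.502 CPM. Cxcl1, Ccl24 and Ccl19 were at or near the floor in immature cells, with 13, 37 and 41 counts over 8 libraries. The size of their rises is therefore uncertain. Ccl2, Ccl6, Ccl7, Ccl25, Cxcl11, Cxcl12, Xcl1 and Ppbp were not called. With library sizes only, Ccl6 and Xcl1 were called lower. Of the rest, 8 had no count in any library, among them Ccl20 and the Ccl21 genes.

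A list of 10 genes for chemokine receptors was also read, among them atypical receptors that need not bind any of the 9. Of these 10, 7 passed the filter, and 2 were called higher and 2 lower (median 0.50). The shares were near those over all genes (33.4% higher and 34.2% lower). Cxcr3, the receptor of Cxcl9 and Cxcl10, fell from 65.6 ± 6.95 to 33.3 ± 9.31 CPM (log2 fold change -0.98 ± 0.14, edgeR adjusted p = 1.06e-05). It was called lower under all 3 scalings. The atypical receptors Ackr3 and Ackr2, which take up chemokines without signalling to migration, were called higher at low levels, 1.68 ± 1.15 against 0.190 ± 0.164 CPM and 0.639 ± 0.432 against 0.0356 ± 0.0523 CPM. Ccr4, the receptor of Ccl17 and Ccl22, was removed by the filter.

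Of 8 genes whose products cut, carry or store chemokines, 7 were called higher and none lower (median 0.71; 33.4% and 34.2% of all genes), and 6 were higher under either other scaling. Sdc4, a heparan sulfate proteoglycan that binds chemokines, rose from 7.27 ± 1.68 to 41.1 ± 11.1 CPM (log2 fold change 2.49 ± 0.15, edgeR adjusted p = 4.41e-10). Adam10 and Adam17, proteases that shed membrane proteins and of which Adam10 releases Cxcl16, rose from 81.9 ± 6.15 to 106 ± 9.11 CPM and from 130 ± 7.01 to 200 ± 18.5 CPM. Srgn, the granule proteoglycan serglycin, rose from 664 ± 90.1 to 1353 ± 191 CPM. Dpp4, a peptidase that trims chemokines, was not called (0.14 ± 0.07).

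Among 20 genes for transcription factors known to act on chemokine genes, 11 were called higher and 5 lower (33.4% and 34.2% of all genes), with a median of 0.18, and of -0.04 with library sizes only. The 4 with the smallest adjusted p were Relb, Nfkb2 and Rela, members of the NF-kappa B family, and Stat3. Relb rose from 87.3 ± 11.9 to 864 ± 203 CPM (log2 fold change 3.31 ± 0.15, edgeR adjusted p = 3.74e-11), Nfkb2 from 193 ± 15.3 to 670 ± 119 CPM, Rela from 153 ± 4.64 to 324 ± 39.2 CPM and Stat3 from 274 ± 15.6 to 559 ± 67.1 CPM. Relb is also among the 10 mature dendritic cell genes summed above, so its rise is not a separate result. The 5 that fell, named after their values were seen, were Nfkb1, Irf7, Irf8 (also in the cDC1 marker list), Irf9 and Fos. The NF-kappa B family thus moved in both directions, with Nfkb1 falling from 129 ± 8.36 to 93.0 ± 9.31 CPM (-0.47 ± 0.06, edgeR adjusted p = 1.64e-06).

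Of 13 genes for receptors that can induce chemokines, 6 were higher and 4 lower (median 0.20), not far from the shares over all genes (33.4% and 34.2%), and with either other scaling 5 were higher and 6 lower. Cd40, the receptor of CD40 ligand on T cells, rose from 54.8 ± 6.15 to 313 ± 61.4 CPM (log2 fold change 2.52 ± 0.11, edgeR adjusted p = 2.21e-11). Il4ra, the interleukin-4 receptor chain, Tnfrsf1b, a TNF receptor, and Csf2rb, the common chain of the GM-CSF receptor, rose by 2.49 ± 0.11, 2.67 ± 0.16 and 0.97 ± 0.08. Cd40 is also among the 10 mature dendritic cell genes summed above, so its rise is not a separate result. The 4 that fell, named after their values were seen, were Ifngr1, Ltbr, Tlr3 (also in the cDC1 marker list) and Tlr11. Ifngr1, a chain of the interferon gamma receptor, fell from 872 ± 52.4 to 565 ± 96.3 CPM (-0.63 ± 0.09, edgeR adjusted p = 9.04e-06), and Tlr3, a sensor of double-stranded RNA, from 239 ± 29.99 to 117 ± 38.7 CPM (-1.03 ± 0.17, adjusted p = 8.08e-05).

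The genes whose patterns over the 16 libraries were most like each chemokine's were found by the mean absolute difference of log2 CPM profiles, each centred on its own mean, among 7692 genes. The measure follows the stage wherever the stage moves both genes, and it says nothing of shared control. Closest to Cxcl16 were Cblb (0.07), Sqstm1 (0.08) and Bcl2l11 (0.08), to Ccl22 Nipal1 (0.24), Il12b (0.25) and Mreg (0.26), and to Ccl5 Adora2a (0.32), Anxa3 (0.33) and Loxl3 (0.33). To Ccl9 they were Cd69 (0.21), Gga2 (0.25) and Dennd3 (0.26), and to Ccl17 Crebl2 (0.44), Apol7c (0.46) and Stat4 (0.48). For the genes that hardly changed with the stage they were Rybp (0.14), Irf2bp2 (0.15) and Hsp90aa1 (0.15) for Ccl3, Snx24 (0.11), Pfkp (0.11) and Trerf1 (0.13) for Cxcl9, and, for Cxcl10, Akap8l (0.14) and Ubl5 (0.15). Closest to Ccl4 was Il1b, which encodes the cytokine interleukin-1 beta (0.11), ahead of Plk3 (0.17) and Itgb2 (0.18). In Xbp1flIre1fl replicates 1 to 4 Il1b was at 803, 1264, 779 and 596 CPM when mature and 1014, 1173, 1007 and 581 CPM when immature. As for Ccl4, replicate 2 was the highest and replicate 4 the lowest in both stages. Over the 8 mature libraries alone, centred on each genotype, 2 of the 3 genes closest to Ccl4 stayed among the closest 3, 1 of 3 for Ccl5, Ccl17 and Cxcl16, and 0 for the other 5.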

How the data were processed

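RNA was sequenced in 16 libraries of sorted splenic cDC1s. Per the submitters' processing notes, the tools were TopHat2 2.1.0 and Trimmomatic 0.35, with FastQC 0.11.4, limma 3.42.2 and SAMtools 0.1.19, and the build was mm10. The read counter, gene annotation and strandedness are not given in the sources used here. The deposited table of raw counts per gene symbol, whole numbers as the authors left them, was the main input. The authors also deposited log2 values for 11843 genes, including all 9 chemokines. These followed log2 CPM with a residual SD of at most 0.0294 per library and served as an alternative.

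The analysis of counts used edgeR 4.0.16 under R 4.3.3. Genes were filtered with filterByExpr, scaled by TMM and fitted with 1 mean per group (quasi-likelihood, robust, 12 residual degrees of freedom). Contrasts were tested by F-test over 11978 genes with Benjamini-Hochberg adjustment. Standard errors were derived from the F statistic (log2 fold change over root F), and intervals are at 95%. Lengths, for CPM per kb, are merged GENCODE exons of GRCm38 (mm10), and promoters are from RefSeq (GRCm38.p6). All pairs of libraries within a group differed by more than sampling noise (24 pairs, chi-square per degree of freedom 5.41 to 61). Deviations from group means of same-numbered libraries correlated above 0.1 in 8 of 8 pairs within a genotype. Over all groups they did so in 15 of 24 pairs. The replicate number was therefore used as a block within each genotype in an alternative fit that was not planned beforehand. The main tests had no block.

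Named genes were the 9 chemokines, all tested chemokines beside them, up to 4 genes per pathway list by adjusted p, the most abundant gene of each marker list, and the 3 genes most like each chemokine, except for items that are not reported here. Adam10, Dpp4, Ackr2, Fscn1, Zmynd15 and Art3 were named for their relation to a chemokine or marker. The chemokines, lists and tests were chosen with earlier results of these data known. Alternatives were other scalings, filters, tools (DESeq2 1.42.0, limma-voom with limma 3.58.1), robustness, replicate blocks, the fit on 2 groups, the deposited log2 values and leaving out libraries. Protein sequences were not used here.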

Additional observations from a re-analysis of the deposited data

Results flagged for a closer look

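Cxcl10 in mature Xbp1flIre1fl replicate 2 stood apart from the other 3 libraries of its group. It was at 78.6 CPM, while the nearest of the others was at 44.3 CPM, so the gap made up 0.902 of the range of the group (above the critical value of Dixon's test for 4 samples). This was the only such library in 36 sets of 4 tested (9 chemokines in 4 groups), and chance flags about 1 in 20 groups. The same library was also the highest of its group in Ccl4, Cxcl9 and Ccl3, as the values above give.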

How the results depend on the processing

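Ccl5, Ccl22, Cxcl16 and Ccl9 kept their direction and their call in the maturation contrast and within each genotype under every alternative run. Ccl17 kept its call in the maturation contrast under 26 of 26 alternatives that gave it a value and had no value under the filter of at least 5 CPM in 4 libraries. Cxcl10 passed in 12 of 27 alternatives in the maturation contrast, failing also with no filter (adjusted p = 0.0936) and on the deposited log2 values (limma adjusted p = 0.0562), and in 10 of 28 within Xbp1fl. Ccl3 passed without Xbp1fl mature replicate 4 (0.30, edgeR adjusted p = 0.0443, and 0.48 within Xbp1fl, adjusted p = 0.0371). With the replicate block over all groups Ccl3 was called (0.22, adjusted p = 0.023, and 0.32 within Xbp1fl, adjusted p = 0.0208), as was Cxcl10 within Xbp1fl (0.45, adjusted p = 0.0218), and the block within each genotype gave the values in the report. Neither block changed another call of the 9. Over all genes, DESeq2 called 40 genes between the genotypes in immature and 36 in mature cells, against 16 and 17 with edgeR, and the fit on the 2 mature groups alone called 11.

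Several small differences changed sign. With upper quartile normalization Cxcl9 was at -0.0059 for maturation and -0.0578 within Xbp1flIre1fl. With library sizes only Cxcl9 was at -0.11 for maturation, -0.0619 within Xbp1fl and -0.15 within Xbp1flIre1fl, Ccl3 at -0.0948 and Cxcl10 at -0.0015 within Xbp1flIre1fl. Without mature Xbp1flIre1fl replicates 2 and 4, chosen after seeing the data, Cxcl9 was at -0.0675 for maturation and -0.30 within Xbp1flIre1fl, so that 1 chemokine was called lower there, and Cxcl10 at -0.0471. In the same setting the interaction was -0.13 for Ccl4, 0.19 for Ccl22 and 0.11 for Cxcl16, and the genotype difference in mature cells 0.18 for Ccl5, 0.21 for Ccl22, -0.20 for Cxcl9, -0.19 for Cxcl10 and 0.14 for Cxcl16. The causes were not tested.

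Leaving out 1 library at a time gave 5 to 7 chemokines higher for maturation, 4 to 6 within Xbp1fl and 5 within Xbp1flIre1fl. Values that crossed 0 ranged, for maturation, from -0.27 to 0.0033 for Ccl4, and within Xbp1flIre1fl from -0.0308 to 0.24 for Ccl3, -0.43 to 0.11 for Ccl4, -0.12 to 0.17 for Cxcl9 and -0.0727 to 0.32 for Cxcl10. The interaction ranged from -0.32 to 0.22 for Ccl4 and -0.11 to 0.39 for Ccl9. The genotype difference in immature cells ranged from -0.25 to 0.15 for Ccl4, -0.14 to 0.47 for Ccl5, -0.17 to 0.40 for Ccl22 and -0.0278 to 0.0944 for Cxcl16. In mature cells it ranged from -0.24 to 0.0556 for Ccl3, -0.38 to 0.16 for Ccl4, -0.0288 to 0.26 for Cxcl9 and -0.22 to 0.16 for Cxcl10. The depth limits Ccl17, with 2 to 13 counts in immature libraries, and leaves its order among genes near the floor uncertain.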

Other observations

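The ratio of Ccl22 to Ccl5 counts, which is not per length, varied less among mature than among immature libraries. In the mature libraries it was 1.37, 1.03, 1.11 and 1.201 in Xbp1fl replicates 1 to 4 and 1.102, 1.29, 1.29 and 1.17 in Xbp1flIre1fl. In the immature libraries it was 2.56, 0.979, 3.05 and 2.01 in Xbp1fl and 3.48, 0.879, 2.17 and 1.55 in Xbp1flIre1fl, with replicate 2 the lowest in each genotype. Replicate 2 was also the immature library with the most Ccl5 in each genotype. The ratio of Ccl4 to Ccl3 counts was lowest, at 3.75 and 4.11, in immature and mature Xbp1flIre1fl replicate 4. It was 4.64, 4.78, 5.998 and 5.61 in mature and 7.93, 5.63, 8.39 and 6.73 in immature Xbp1fl replicates. The ratios were noticed in these data and no test was made of them.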
